A study of Mus musculus with 48 samples.

Results

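The cytochrome P450 genes of families 2, 3 and 4 were read out in mouse skin after treatment with inhibitors of DGAT1, the acyltransferase that makes triglyceride from diacylglycerol. They were taken as every probeset whose single gene symbol starts with Cyp2, Cyp3 or Cyp4 and goes on with a subfamily letter and a number. This gave 54 probesets for 51 genes, out of 38385 probesets on the array. P450 enzymes are heme proteins of the endoplasmic reticulum that insert oxygen into lipids, steroids, vitamins and drugs, with electrons passed on by P450 reductase and cytochrome b5. Families 2 and 3 hold most of the drug and steroid oxidases of the liver as well as epoxygenases of arachidonic acid, and family 4 hydroxylates the ends of fatty acid chains. In skin, members of family 2 are known in keratinocytes and members of family 4 take part in making the acylceramides of the water barrier.

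Skin of 48 C57BL/6 mice was profiled, with 1 array per mouse, after 14 days of treatment. The labels give an age of 8 weeks and dorsal skin for every mouse, and the methods describe male, diet-induced obese mice on a high-fat diet, dosed orally, so that treated and vehicle mice share the obesity and the diet. Skin of the back, the belly or both is what the methods describe. Study 1 held compound 2 (Cpd2), compound 1 (Cpd1) and vehicle, with 8 mice each. Study 2 held compound 6 (Cpd6), Cpd2 and vehicle, and Study 4 held Cpd6, compound 18 (Cpd18) and vehicle, with 4 mice each. Vehicle was 0.5% methylcellulose, and 30 mg/kg is the dose where the methods give no other. The dose of Cpd1 is not settled, because the sources name a lower dose beside its histology. Cpd2 and Cpd6 are classed as skin-positive, meaning that they caused atrophy of the sebaceous glands, and Cpd1 and Cpd18 as skin-negative. Levels are log2 intensities, and a difference of 1 on this scale is a 2-fold change. Intensities of different probesets cannot be compared as amounts of RNA. In a piece of whole skin, fewer cells of a type and less RNA per cell cannot be told apart.

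The 33 member probesets (30 genes) whose mean over the 48 arrays was at or above 2.93, the 25th percentile of all probesets, were tested with limma together with all 28789 probesets above that level. Calls were made at an adjusted p (Benjamini-Hochberg, over all of them) below 0.05. The other 21 probesets, for 21 genes, were too dim, with means from 1.37 to 2.72 and no single value above 3.88. They were Cyp2a12, Cyp2b13, Cyp2c29, Cyp2c38, Cyp2c39, Cyp2c50, Cyp2c55, Cyp2c70, Cyp2d9, Cyp2d12, Cyp2d34, Cyp2j11, Cyp2j13, Cyp2t4, Cyp3a11, Cyp3a16, Cyp3a25, Cyp3a44, Cyp3a59, Cyp4a29 and Cyp4f15. Among them were 6 of the 7 Cyp2c genes and 5 of the 7 Cyp3a genes, both large families of drug oxidases in the liver. Just inside the limit stood Cyp2g1 (3.00), Cyp2b9 (3.08) and Cyp4x1 (3.12), and just outside stood Cyp2j11 (2.72), Cyp2d34 (2.59) and Cyp2b13 (2.57). Cyp2g1 averaged 2.35 in the vehicle mice and passed through treated mice alone, so that counts are also given without it.

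The brightest probesets were those of Cyp2b10, with a mean over all arrays of 10.50, Cyp4f39 (9.87), Cyp2f2 (9.84), Cyp2b19 (9.75), Cyp4b1 (9.75), Cyp4v3 (9.09) and Cyp2e1 (8.43). Cyp2b10 is the liver enzyme induced by phenobarbital, Cyp2b19 an epoxygenase of upper epidermal keratinocytes, and Cyp4f39 the mouse counterpart of human CYP4F22, which hydroxylates the very long fatty acids of acylceramides. Cyp2f2 is known from the club cells of the lung, Cyp4v3 is the counterpart of human CYP4V2, and Cyp2e1 oxidises ethanol.

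Cyp2b23, Cyp2j12, Cyp2j8 and Cyp3a57 fell with Cpd2 in Study 1 and with Cpd6 in Study 4. The study chose Cyp2b23 and Cyp2j12 (listed there as Cyp2j12-ps) as down-regulated markers, and Cyp2g1 as an up-regulated one, on the mice of Studies 1 and 2, so that the direction of these genes there is not independent evidence. Its rule also left out probesets that changed with Cpd1 in Study 1. For these markers, the lack of change with Cpd1 and the gap between Cpd2 and Cpd1 are therefore not independent evidence either. The 250 bases before the start sites of Cyp2b23, Cyp2j12, Cyp2j8 and Cyp3a57 are shown because these 4 genes fell in the same comparisons, and that of Cyp3a13, a gene that was called higher, stands beside them. All are from RefSeq on GRCm38.p6 and run 5′ to 3′ on the strand of the gene. Capitals mark the letters AGGTCA, a half-site of nuclear receptors, the CCAAT box, the core GCGTG of the aryl hydrocarbon receptor element, and the TATAAA box, each searched on both strands.
Cyp2b23, chr7:26686431-26686680, minus strand: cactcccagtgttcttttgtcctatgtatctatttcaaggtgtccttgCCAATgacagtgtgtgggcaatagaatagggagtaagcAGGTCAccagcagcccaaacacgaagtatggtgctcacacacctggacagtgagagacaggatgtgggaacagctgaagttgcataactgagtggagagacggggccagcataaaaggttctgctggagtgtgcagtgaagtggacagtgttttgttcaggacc
Cyp2j12, chr4:96141153-96141402, minus strand: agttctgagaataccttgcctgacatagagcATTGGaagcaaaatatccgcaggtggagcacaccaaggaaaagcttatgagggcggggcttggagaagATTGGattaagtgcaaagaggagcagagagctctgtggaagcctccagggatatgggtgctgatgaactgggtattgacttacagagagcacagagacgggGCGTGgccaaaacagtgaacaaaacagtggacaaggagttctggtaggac
Cyp2j8, chr4:96507398-96507647, minus strand: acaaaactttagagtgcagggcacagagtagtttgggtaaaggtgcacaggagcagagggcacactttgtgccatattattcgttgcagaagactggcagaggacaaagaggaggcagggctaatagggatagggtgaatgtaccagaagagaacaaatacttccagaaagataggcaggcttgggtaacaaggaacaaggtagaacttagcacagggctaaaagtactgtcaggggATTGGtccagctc
Cyp3a57, chr5:145345019-145345268, plus strand: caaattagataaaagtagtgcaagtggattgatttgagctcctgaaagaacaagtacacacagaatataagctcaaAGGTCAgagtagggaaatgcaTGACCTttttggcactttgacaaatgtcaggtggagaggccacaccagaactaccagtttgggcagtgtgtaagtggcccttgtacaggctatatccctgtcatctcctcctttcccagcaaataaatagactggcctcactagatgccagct
Cyp3a13, chr5:137921620-137921869, minus strand: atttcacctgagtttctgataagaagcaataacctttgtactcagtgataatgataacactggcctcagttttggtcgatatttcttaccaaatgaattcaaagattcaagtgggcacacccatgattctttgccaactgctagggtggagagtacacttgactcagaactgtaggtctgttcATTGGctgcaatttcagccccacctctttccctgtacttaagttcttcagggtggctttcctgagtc
AGGTCA was found in 2 of the 4 promoters of genes that fell, in Cyp2b23 with its first base 164 bases before the start site and in Cyp3a57 at 174 bases and, on the opposite strand, at 153 bases. It was in 5 of the 24 member promoters on hand and in 14% of all 32851 promoters. CCAAT was in 3 of the 4, in Cyp2b23 at 202 bases and, on the opposite strand, in Cyp2j12 at 151 and 219 bases and in Cyp2j8 at 13 bases. It was also in Cyp3a13, on the opposite strand at 67 bases, in 12 of the 24 member promoters and in 33.8% of all. GCGTG was in 1 of the 4, Cyp2j12, at 50 bases, in 8 of the 24 and in 28.2% of all. TATAAA was in 0 of the 4, in 3 of the 24 and in 12.4% of all. A match describes the letters in this window only.

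Cyp2b23 had the largest change among the tested members. In Study 1 its level had a lowest value of 3.64, a median of 5.38 and a highest of 7.48 in Cpd2 mice, against 9.05, 9.28 and 9.46 in Cpd1 mice and 7.89, 9.31 and 9.50 in vehicle mice. All 8 Cpd2 mice were below all 16 others, and the Cpd2 mice were more spread than the Cpd1 mice. The log2 fold change of Cpd2 against vehicle was −3.77 (SE 0.35, adjusted p = 1.24e-07), which is 13.7-fold lower, and against Cpd1 −3.96 (SE 0.35, adjusted p = 4.54e-08). In Study 2 the levels were 4.45, 4.87, 4.94 and 4.82 in Cpd6 mice and 5.13, 4.55, 5.33 and 5.19 in Cpd2 mice, against 8.81, 9.0, 9.08 and 8.60 in vehicle mice. Both compounds lowered it, Cpd6 by −4.10 (SE 0.19, adjusted p = 3.99e-08), or 17.2-fold, and Cpd2 by −3.82 (SE 0.19, adjusted p = 1.09e-07), or 14.1-fold. In Study 4 it stood at 4.26, 5.11, 5.92 and 5.81 in Cpd6 mice and at 8.35, 9.0, 8.79 and 8.49 in Cpd18 mice, against 8.74, 8.73, 8.28 and 9.0 in vehicle mice. Cpd6 mice lay below both other groups, while Cpd18 and vehicle mice overlapped. The log2 fold change was −3.41 (SE 0.29, adjusted p = 1.11e-05) for Cpd6 against vehicle, −3.38 (SE 0.29, adjusted p = 1.17e-05) for Cpd6 against Cpd18 and −0.03 (95% interval −0.65 to 0.58) for Cpd18 against vehicle.

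Cyp2j12 belongs to the Cyp2j subfamily, whose members include epoxygenases of arachidonic acid. In Study 1 it ran between 4.64 and 6.55 with a median of 5.80 in Cpd2 mice, between 7.64 and 8.30 (median 7.88) in Cpd1 mice, and between 6.83 and 8.72 (median 8.18) in vehicle mice. No Cpd2 mouse overlapped either group, and the log2 fold change was −2.31 (SE 0.23, adjusted p = 3.92e-07) against vehicle and −2.12 (SE 0.23, adjusted p = 1.40e-06) against Cpd1. In Study 2 the levels were 4.75, 5.46, 4.12 and 5.41 in Cpd6 mice and 5.84, 6.15, 6.35 and 5.95 in Cpd2 mice, against 7.34, 7.11, 7.38 and 6.78 in vehicle mice. The 3 groups did not overlap. The change passed the test for Cpd6 (−2.22, SE 0.26, adjusted p = 0.000598) and not for Cpd2 (−1.08, 95% interval −1.64 to −0.53, adjusted p = 0.213). In Study 4 Cpd6 mice had 5.37, 5.33, 5.45 and 5.09, and Cpd18 mice had 7.14, 7.18, 7.18 and 7.01, against 6.65, 6.88, 6.73 and 7.27 in vehicle mice. Cpd6 mice were again lowest, with −1.57 (SE 0.14, adjusted p = 1.39e-05) against vehicle and −1.82 (SE 0.14, adjusted p = 3.65e-06) against Cpd18.

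Cyp2j8, of the same subfamily and the same gene cluster, was dimmer. Its levels in Study 1 ran between 2.59 and 4.08 (median 3.29) in Cpd2 mice, between 4.42 and 5.48 (median 4.99) in Cpd1 mice and between 4.39 and 5.90 (median 5.26) in vehicle mice, so that Cpd2 mice did not overlap the others. It fell by 2.01 (SE 0.21, adjusted p = 4.24e-07) against vehicle. The levels in Study 2 were 2.55, 3.89, 2.96 and 3.42 in Cpd6 mice and 3.96, 3.79, 3.87 and 3.95 in Cpd2 mice, against 4.23, 5.21, 4.79 and 3.52 in vehicle mice. One vehicle mouse, replicate 4, lay among the treated ones. Neither compound passed the test, with −1.23 (SE 0.33, adjusted p = 0.126) for Cpd6 and −0.54 (SE 0.33, adjusted p = 0.800) for Cpd2, and without vehicle replicate 4 the change with Cpd6 was −1.54 (adjusted p = 0.0369). In Study 4 the levels were 3.39, 2.75, 3.09 and 3.41 in Cpd6 mice and 3.97, 4.67, 3.94 and 4.39 in Cpd18 mice, against 4.18, 4.07, 3.99 and 4.60 in vehicle mice. Cpd6 mice lay below both, with −1.05 (SE 0.20, adjusted p = 0.00641) against vehicle and −1.08 (SE 0.20, adjusted p = 0.0191) against Cpd18. The call against Cpd18 was lost without Cpd18 replicate 2 or 4 or Cpd6 replicate 2 or 3 (−0.94 to −1.06).

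Cyp3a57 belongs to the subfamily of steroid and drug oxidases. In Study 1 it had a lowest level of 5.69, a median of 6.82 and a highest of 7.79 in Cpd2 mice, 7.65, 8.13 and 8.34 in Cpd1 mice, and 7.49, 8.45 and 8.82 in vehicle mice. The highest Cpd2 mouse, replicate 1, reached into both other groups, and the log2 fold change was −1.62 (SE 0.22, adjusted p = 2.36e-05) against vehicle and −1.33 (SE 0.22, adjusted p = 0.000321) against Cpd1. In Study 2 its levels were 5.92, 6.47, 5.93 and 6.92 in Cpd6 mice and 6.56, 6.83, 7.62 and 6.24 in Cpd2 mice, against 7.93, 7.56, 7.72 and 7.09 in vehicle mice. The change missed the threshold with Cpd6 (−1.27, SE 0.29, adjusted p = 0.0799) and with Cpd2 (−0.76, SE 0.29, adjusted p = 0.523), and without Cpd2 replicate 3 or 4 the Cpd6 change, still −1.27, was called (adjusted p = 0.0394 and 0.0485). In Study 4 Cpd6 mice had 6.55, 6.60, 6.97 and 6.46, and Cpd18 mice 7.62, 7.86, 7.90 and 7.65, against 7.62, 7.80, 7.70 and 8.05 in vehicle mice. Cpd6 mice were below all others, by −1.15 (SE 0.13, adjusted p = 0.000238) against vehicle and −1.11 (SE 0.13, adjusted p = 0.000332) against Cpd18.

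**Figure D1:**
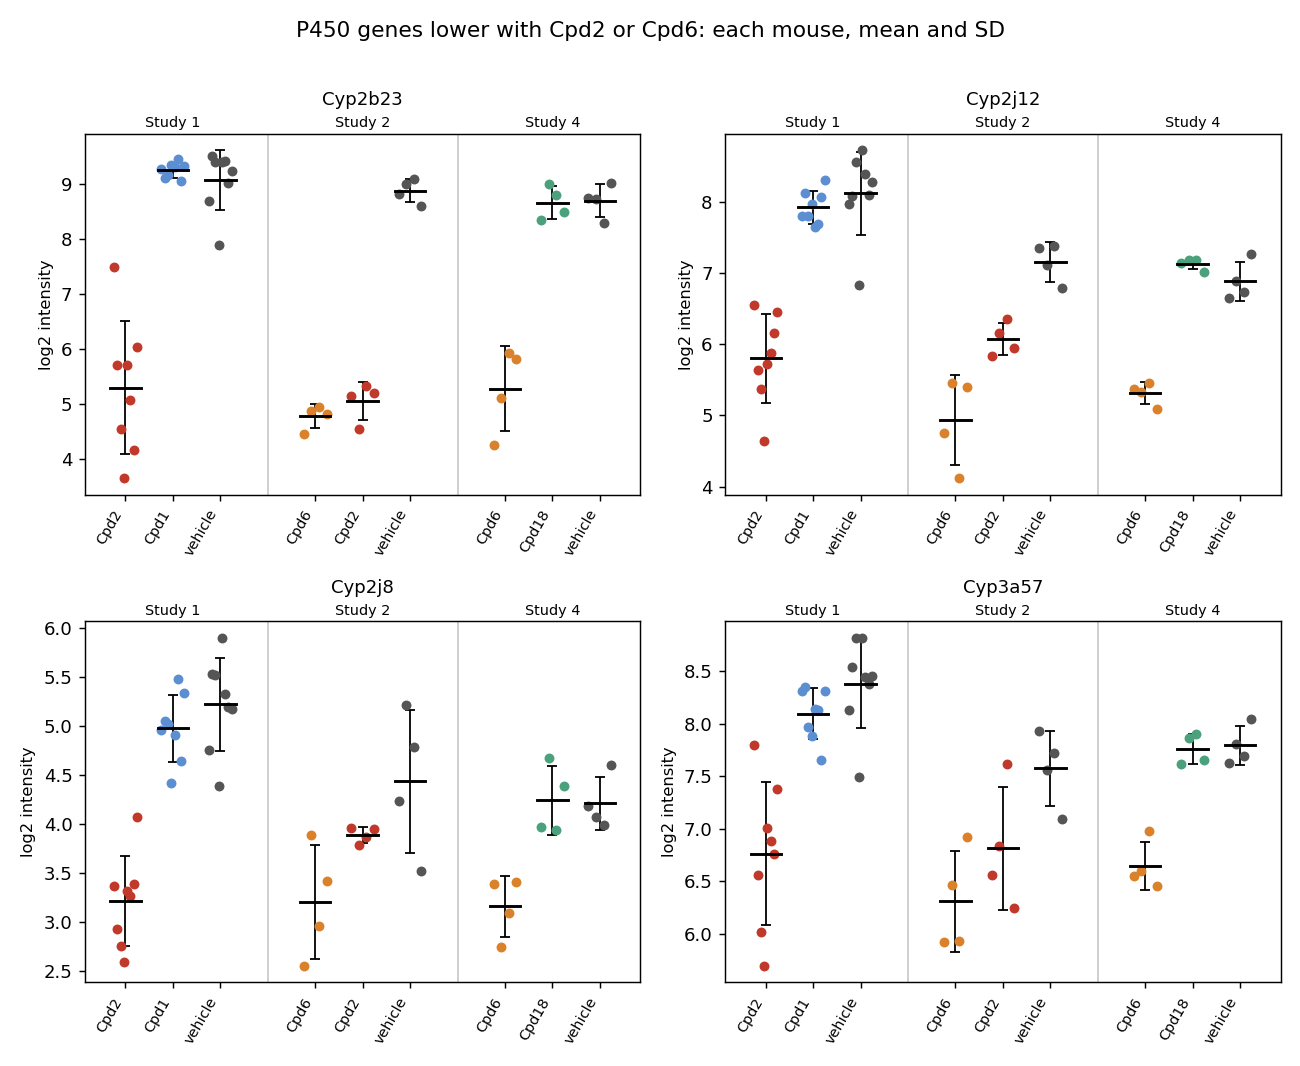
Log2 intensity of Cyp2b23, Cyp2j12, Cyp2j8 and Cyp3a57 (vertical axes) for every mouse, grouped along the horizontal axis by treatment within each study. Points are mice, black bars the mean and error bars the SD. The Cpd2 mice of Study 1 and the Cpd6 mice of Studies 2 and 4 lie low for all 4 genes. They overlap vehicle mice for Cyp3a57 in Study 1 and for Cyp2j8 in Study 2. The Cpd2 mice of Study 2 lie below the vehicle mice for Cyp2b23 and Cyp2j12.

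Markers of other cells moved in some of the same mice. The mean level of 18 sebaceous gland genes ran between 8.31 and 9.14 in Cpd2 mice, 9.27 and 9.40 in Cpd1 mice and 8.70 and 9.52 in vehicle mice of Study 1, between 8.64 and 8.93 in Cpd6 mice, 8.86 and 9.03 in Cpd2 mice and 8.96 and 9.24 in vehicle mice of Study 2, and between 8.62 and 8.91 in Cpd6 mice, 9.07 and 9.26 in Cpd18 mice and 9.13 and 9.23 in vehicle mice of Study 4. Of these 18 genes, 6 were called lower with Cpd2 in Study 1, where 6.00% of all tested probesets were called lower, 2 with Cpd6 (0.288% of all) and 1 with Cpd2 (0.0868%) in Study 2, and 6 with Cpd6 in Study 4 (6.17%). One of the 18, Scd3, is a marker that the study chose on the mice of Studies 1 and 2. Its direction there is not independent evidence. The part of these 18 genes in the changes of the P450 genes was not tested. Of 21 skeletal muscle genes, 19 were called lower with Cpd2 in Study 1, where the mean level ran between 5.46 and 11.26 in Cpd2 mice, 10.70 and 11.33 in Cpd1 mice and 9.62 and 11.48 in vehicle mice. The 3 Cpd2 mice lowest in muscle genes, replicates 3, 4 and 7, were also the 3 lowest in Cyp2b23, at 4.54, 3.64 and 4.16. Without these 3 mice the log2 fold changes against vehicle were −3.07 for Cyp2b23, −2.07 for Cyp2j12, −1.83 for Cyp2j8 and −1.26 for Cyp3a57, all still called, with the largest adjusted p at 0.000605. Hair follicle genes varied between mice of every group, from 3.61 to 10.40 in vehicle mice of Study 1. Of 13 tested, 3 were called lower with Cpd6 in Study 4. Their median log2 fold changes were −4.71 with Cpd6 and −3.42 with Cpd2 in Study 2 and −4.48 with Cpd6 in Study 4. With a hair follicle score as a covariate, Cyp2b23 kept −4.09 with Cpd6 and −3.81 with Cpd2 in Study 2 and −3.20 with Cpd6 in Study 4, and the call of Cyp2j8 with Cpd6 in Study 4 was lost (−0.81, adjusted p = 0.0999). Genes of hepatocytes, the cells richest in these P450 families, had a mean level between 3.21 and 3.68 in each of the 9 groups.

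Further cell types moved in the same comparisons. With Cpd2 in Study 1, 7 of 8 T cell genes were called higher, where 7.09% of all probesets were, with a mean level between 7.37 and 8.06 in Cpd2 mice, 6.88 and 7.32 in Cpd1 mice and 6.72 and 7.33 in vehicle mice. Of 10 endothelial genes 3 were called lower there, beside 6.00% of all. Their mean level was 7.87 to 8.62 in Cpd2 mice, 8.68 to 9.04 in Cpd1 mice and 7.66 to 9.01 in vehicle mice. With Cpd6 in Study 4, 6 of the 10 endothelial genes were called higher, where 4.56% of all probesets were, at 8.71 to 8.82 in Cpd6 mice, 8.55 to 8.79 in Cpd18 mice and 8.16 to 8.69 in vehicle mice. In the same comparison 5 of 7 melanocyte genes were called lower, where 6.17% of all probesets were. Their mean level was 5.15 to 5.61 in Cpd6 mice, 5.32 to 6.42 in Cpd18 mice and 5.69 to 7.50 in vehicle mice. There too 5 of 7 macrophage genes were called lower, at 5.57 to 5.88 in Cpd6 mice, 5.52 to 6.06 in Cpd18 mice and 6.21 to 6.27 in vehicle mice, so that Cpd6 and Cpd18 mice overlapped and both lay below the vehicle mice. Genes of body position, most of them Hox genes, set the Cpd1 mice of Study 1 apart, with a mean level between 6.38 and 7.56 in Cpd2 mice, 7.78 and 8.11 in Cpd1 mice and 6.74 and 7.37 in vehicle mice. Of these 8 genes, 5 were called lower with Cpd2 against Cpd1, beside 8.25% of all probesets. With Cpd1 against vehicle 3 were called higher, beside 0.327% of all in either direction. Of 7 basal keratinocyte genes, 4 were called higher with Cpd2 in Study 1 (7.09% of all) and 3 with Cpd6 in Study 4 (4.56%). With Cpd6 in Study 4, 3 of 10 differentiated keratinocyte genes and 3 of 21 skeletal muscle genes were also called higher. The part of these lists in the changes of the P450 genes was not tested.

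Cyp2g1, known from the olfactory mucosa, was called higher with Cpd2 in Study 1 and with both compounds in Study 2. Its vehicle mean of 2.35 lay below the lower limit for testing, so that the size of its fold changes is uncertain. It entered the test only through the treated mice, so that its calls are not independent of the filter. The same comparisons were called with no filter. Its levels in Study 1 ran between 2.63 and 4.74 (median 3.76) in Cpd2 mice, between 2.15 and 3.12 (median 2.52) in Cpd1 mice and between 2.20 and 2.86 (median 2.38) in vehicle mice, with the lowest Cpd2 mouse within both other groups. The log2 fold change was 1.28 (SE 0.22, adjusted p = 0.000324) against vehicle and 1.19 (SE 0.22, adjusted p = 0.000882) against Cpd1. In Study 2 the levels were 2.99, 4.37, 3.90 and 5.42 in Cpd6 mice and 4.93, 5.21, 4.71 and 4.08 in Cpd2 mice, against 2.31, 2.03, 2.37 and 2.20 in vehicle mice. Neither treated group overlapped the vehicle mice, and the change was 1.94 (SE 0.39, adjusted p = 0.0443) with Cpd6 and 2.51 (SE 0.39, adjusted p = 0.0187) with Cpd2. Leaving out Cpd2 replicate 1, 2 or 3, or replicate 2 or 3 of the vehicle mice, ended the call for Cpd2 (2.35 to 2.55). Leaving out Cpd2 replicate 1, 2 or 3, Cpd6 replicate 2, 3 or 4, or replicate 2, 3 or 4 of the vehicle mice ended that for Cpd6 (1.52 to 2.03). With a hair follicle score as a covariate it was lost for both as well (1.71 and 2.31). In Study 4 the levels were 3.41, 2.84, 2.39 and 2.43 in Cpd6 mice and 2.41, 1.92, 2.33 and 2.43 in Cpd18 mice, against 2.11, 2.07, 2.25 and 2.45 in vehicle mice. Of the 4 Cpd6 mice, 2 stood above the others, and the change of 0.55 (SE 0.20, adjusted p = 0.0845) missed the threshold. With a skeletal muscle score as a covariate the change in Study 1 was 0.80 (adjusted p = 0.0586).

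Cyp3a13 was the other gene called higher in both Study 1 and Study 2. It is the member of subfamily 3a that lies apart from the Cyp3a cluster on the same chromosome. Its brighter probeset ran between 6.19 and 6.79 (median 6.61) in Cpd2 mice, between 5.15 and 6.49 (median 5.91) in Cpd1 mice and between 4.79 and 6.02 (median 5.58) in vehicle mice of Study 1. Cpd2 mice did not overlap vehicle mice but overlapped Cpd1 mice, and the log2 fold change was 1.04 (SE 0.20, adjusted p = 0.000642) against vehicle and 0.74 (SE 0.20, adjusted p = 0.0110) against Cpd1. In Study 2 the same probeset read 6.98, 7.11, 6.41 and 6.80 in Cpd6 mice and 6.69, 6.31, 6.21 and 6.65 in Cpd2 mice, against 6.06, 5.92, 5.41 and 5.38 in vehicle mice. No treated mouse overlapped the vehicle mice. The change was 1.13 (SE 0.20, adjusted p = 0.0227) with Cpd6 and 0.77 (SE 0.20, adjusted p = 0.288) with Cpd2, and leaving out Cpd6 replicate 1, 2 or 4, or replicate 3 or 4 of the vehicle mice, ended the call for Cpd6 (1.03 to 1.14). In Study 4 it read 6.18, 5.63, 5.90 and 5.62 in Cpd6 mice and 6.15, 6.09, 5.82 and 5.85 in Cpd18 mice, against 6.05, 6.00, 6.07 and 5.90 in vehicle mice. The groups overlapped, at −0.17 (95% interval −0.47 to 0.13) for Cpd6 against vehicle. The dimmer probeset of Cyp3a13 was called with Cpd2 in Study 1 (0.80, SE 0.16, adjusted p = 0.00157) and had 1.06 with Cpd6 and 0.96 with Cpd2 in Study 2 (adjusted p = 0.110 and 0.362). With Cpd1 it had 0.61 (SE 0.16, adjusted p = 0.110), and Cpd2 and Cpd1 differed there by 0.19 (95% interval −0.15 to 0.53).

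Cyp2j6, the neighbour of Cyp2j8 on chromosome 4, had 2 probesets. The dimmer one ran between 5.77 and 6.30 in Cpd2 mice, between 5.42 and 5.94 in Cpd1 mice and between 4.98 and 5.82 in vehicle mice of Study 1, and was called higher with Cpd2 against vehicle (0.61, SE 0.12, adjusted p = 0.000978) and against Cpd1 (0.42, SE 0.12, adjusted p = 0.0158). The brighter one was not called, at 0.47 (SE 0.18, adjusted p = 0.0921) against vehicle and 0.03 (SE 0.18, adjusted p = 0.929) against Cpd1, so that the probesets disagree on the difference between the compounds. Cyp2w1 was called higher with Cpd2 against Cpd1 alone (0.42, SE 0.15, adjusted p = 0.0488), with levels between 5.19 and 6.06 in Cpd2 mice and between 4.88 and 5.50 in Cpd1 mice that overlapped. Leaving out replicate 1, 3, 4, 6, 7 or 8 of Cpd2, 2, 3, 4, 5, 6 or 8 of Cpd1, or 2, 3, 5 or 7 of vehicle ended this call (0.35 to 0.43), and it was 0.25 (adjusted p = 0.346) without the 3 Cpd2 mice low in muscle genes. Without these mice, Cyp2j6 at its dimmer probeset and Cyp3a13 at its brighter one also missed the threshold against Cpd1 (0.44, adjusted p = 0.0670, and 0.74, adjusted p = 0.0588).

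**Figure D2:**
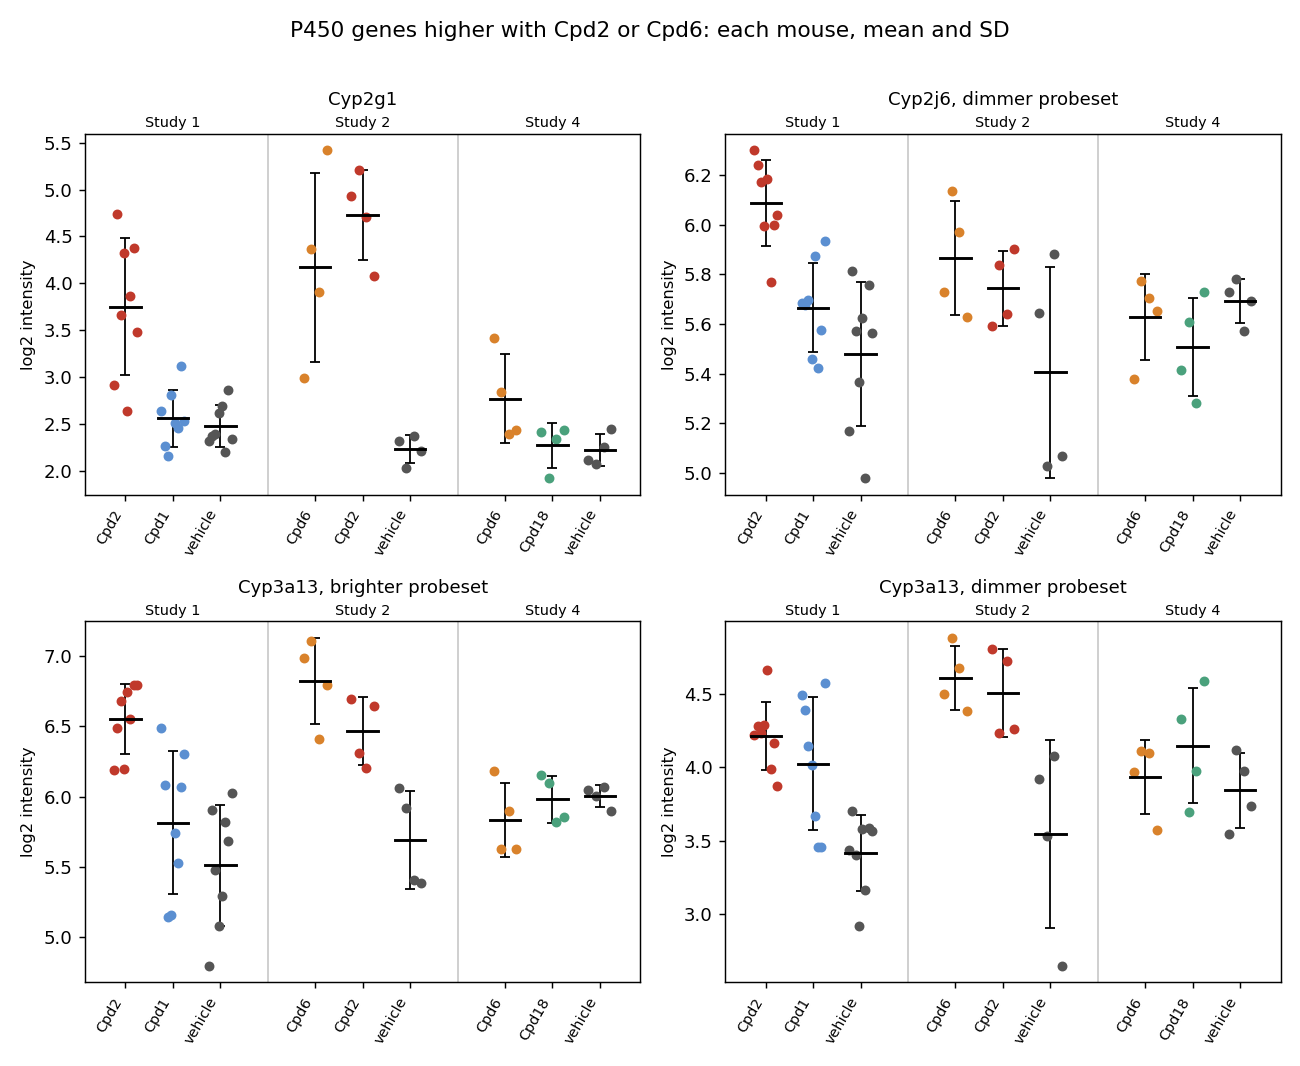
Log2 intensity of Cyp2g1, the dimmer probeset of Cyp2j6 and both probesets of Cyp3a13 (vertical axes) for every mouse, grouped along the horizontal axis by treatment within each study. Points are mice, black bars the mean and error bars the SD. Cyp2g1 and Cyp3a13 lie above vehicle with Cpd2 in Study 1 and with both compounds in Study 2, and in Study 4 the Cpd6 and vehicle mice overlap.

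Cyp2b10, Cyp2b19 and Cyp4f39, all bright, were called lower with Cpd2 in Study 1, and their changes were not called in the other studies. Cyp2b10 ran between 9.55 and 10.85 in Cpd2 mice, between 10.70 and 11.19 in Cpd1 mice and between 9.87 and 11.24 in vehicle mice. Cpd2 replicate 1 alone reached the level of Cpd1 mice. Of the 8 Cpd2 mice, 4 lay within the range of the vehicle mice and 4 below it, and the low end of that range was vehicle replicate 4 alone, with the next vehicle mouse at 10.51. The log2 fold change was −0.91 (SE 0.17, adjusted p = 0.000768) against vehicle and −0.93 (SE 0.17, adjusted p = 0.000876) against Cpd1. With a skeletal muscle score as a covariate it was −0.57 (adjusted p = 0.0976) and −0.61 (adjusted p = 0.0512). In Study 2 Cyp2b10 had −0.22 (95% interval −0.56 to 0.13) with Cpd6 and −0.20 (−0.55 to 0.14) with Cpd2, and in Study 4 it had −0.29 (adjusted p = 0.0660) with Cpd6.

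Cyp2b19 ran between 8.55 and 9.82 in Cpd2 mice, between 9.34 and 10.28 in Cpd1 mice and between 9.12 and 9.92 in vehicle mice of Study 1. The groups overlapped, with −0.55 (SE 0.16, adjusted p = 0.0213) against vehicle and −0.84 (SE 0.16, adjusted p = 0.00103) against Cpd1. The call against vehicle was lost without Cpd2 replicate 2 (−0.48, adjusted p = 0.0526), without the 3 mice low in muscle genes (−0.41, adjusted p = 0.241) and with a skeletal muscle score as a covariate (−0.24), and that against Cpd1 with the covariate (−0.55, adjusted p = 0.0569). In Study 2 the change was −0.53 with Cpd2, close to that of Study 1, and missed the threshold (SE 0.17, adjusted p = 0.418). Cyp4f39 ran between 9.27 and 9.92 in Cpd2 mice, between 9.91 and 10.23 in Cpd1 mice and between 9.55 and 10.47 in vehicle mice. It fell by 0.57 (SE 0.11, adjusted p = 0.000965) against vehicle and by 0.51 (SE 0.11, adjusted p = 0.00258) against Cpd1, and its change against vehicle was −0.58 without the 3 mice low in muscle genes. With Cpd2 in Study 2 it had −0.02 (95% interval −0.39 to 0.36).

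Cyp2d22, a member of the drug-oxidising Cyp2d subfamily, was called lower with Cpd2 against Cpd1 by both of its probesets, at −0.67 (SE 0.13, adjusted p = 0.000908) and −0.72 (SE 0.17, adjusted p = 0.00515). Its brighter probeset ran between 6.82 and 7.40 in Cpd2 mice, between 7.51 and 8.02 in Cpd1 mice and between 6.49 and 7.56 in vehicle mice, so that Cpd2 and Cpd1 mice did not overlap while vehicle mice overlapped both. Against vehicle it had −0.20 (SE 0.13, adjusted p = 0.325) with Cpd2 and 0.46 (SE 0.13, adjusted p = 0.111) with Cpd1. The dimmer probeset lost its call without the 3 mice low in muscle genes (−0.50, adjusted p = 0.0845) and with the muscle score (−0.40, adjusted p = 0.180), and against vehicle it was called without vehicle replicate 4 (−0.50, adjusted p = 0.0285, against −0.39 with all mice).

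Cyp4f16 and Cyp2r1, a hydroxylase of vitamin D, were called lower with Cpd6 in Study 4. Cyp4f16 had 6.08, 6.19, 5.86 and 6.10 in Cpd6 mice and 6.20, 6.41, 6.17 and 6.49 in Cpd18 mice, against 6.50, 6.67, 6.53 and 6.67 in vehicle mice. Neither treated group overlapped the vehicle mice, and the treated groups overlapped each other. The change was −0.53 (SE 0.12, adjusted p = 0.0128) with Cpd6 and −0.27 (95% interval −0.52 to −0.03, adjusted p = 0.586) with Cpd18, and with a hair follicle score as a covariate it was −0.51 with Cpd6 (adjusted p = 0.114). Cyp2r1 had 4.18, 4.65, 4.32 and 4.40 in Cpd6 mice and 4.89, 4.87, 4.49 and 5.01 in Cpd18 mice, against 4.68, 5.18, 5.16 and 4.68 in vehicle mice. Cpd6 mice lay just below the vehicle mice and overlapped the Cpd18 mice. The change of −0.54 (SE 0.16, adjusted p = 0.0479) lay at the threshold. Leaving out replicate 1, 2 or 4 of Cpd18, 1, 3 or 4 of Cpd6, or 2, 3 or 4 of vehicle ended it (−0.45 to −0.62).

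**Figure D3:**
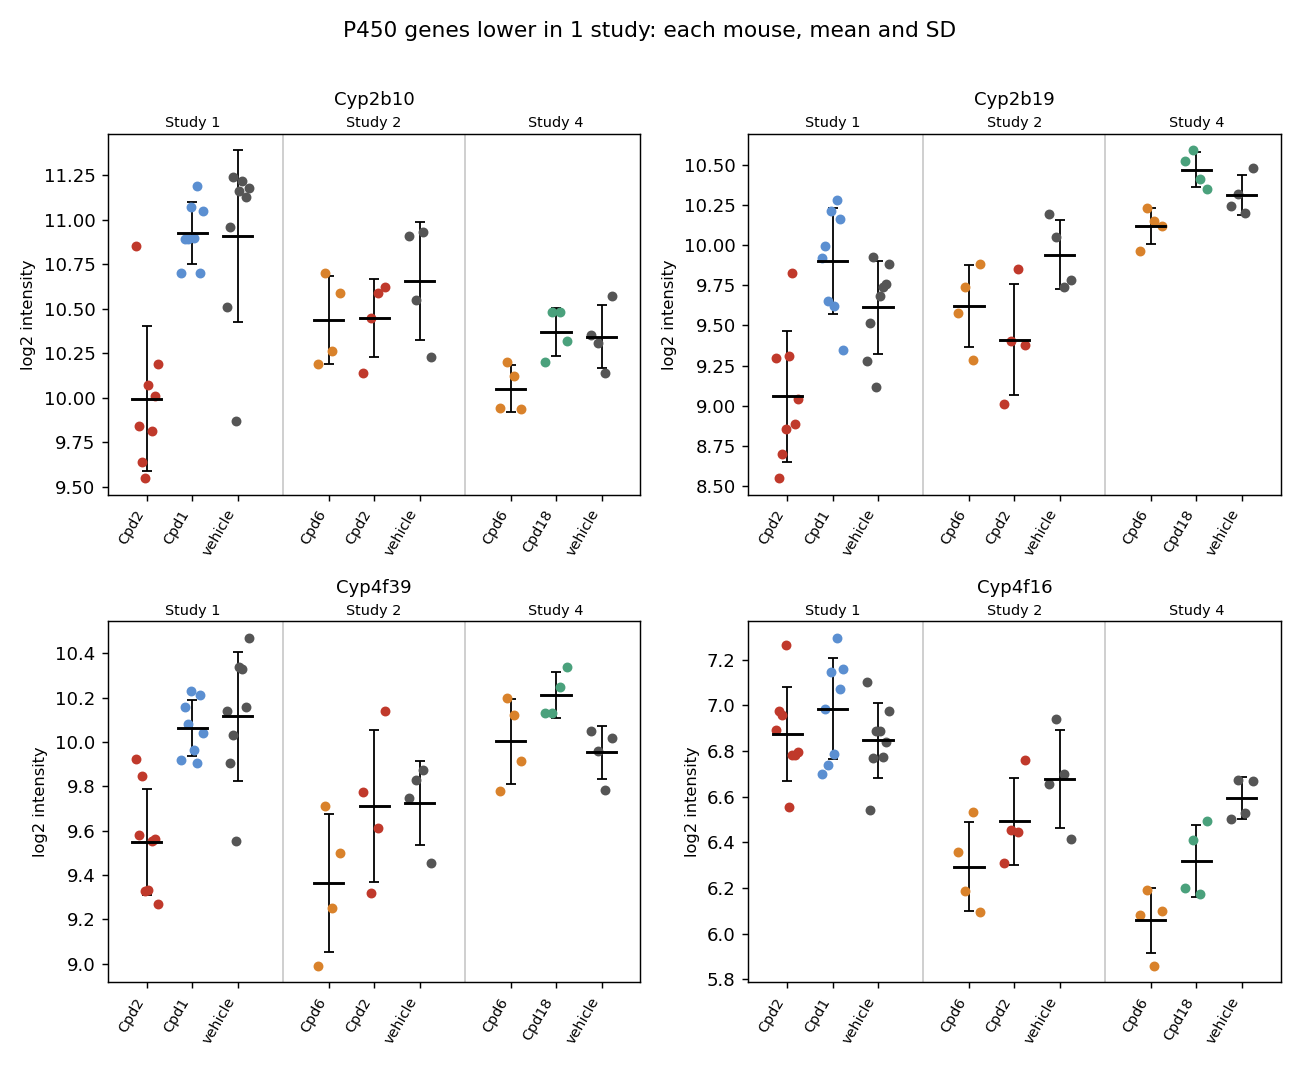
Log2 intensity of Cyp2b10, Cyp2b19, Cyp4f39 and Cyp4f16 (vertical axes) for every mouse, grouped along the horizontal axis by treatment within each study. Points are mice, black bars the mean and error bars the SD. The first 3 genes lie lower with Cpd2 than with Cpd1 in Study 1, and Cyp4f16 lies lower with Cpd6 than with vehicle in Study 4.

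By comparison, Cpd2 in Study 1 called 4 of the 33 member probesets higher (12.1%), where 7.09% of all tested probesets were called higher, and 7 lower (21.2%), where 6.00% of all were. The median log2 fold change was 0.11 for the members and 0.04 for all probesets. Against Cpd1 there were 4 higher, beside 8.99% of all, and 9 lower (27.3%), beside 8.25% of all. Without Cyp2g1 the higher counts were 3 in both. In Study 2 Cpd6 called 2 higher and 2 lower, beside 0.0903% and 0.288% of all probesets, and Cpd2 called 1 higher and 1 lower, beside 0.0417% and 0.0868%. Without Cyp2g1, 1 was higher with Cpd6 and 0 with Cpd2. These Study 2 calls were Cyp2g1, Cyp2b23 and, with Cpd6 only, Cyp2j12 and Cyp3a13, 3 of the 4 genes being markers that the study chose there. In Study 4 Cpd6 called 0 higher, beside 4.56% of all, and 6 lower (18.2%), beside 6.17% of all, and against Cpd18 0 higher, beside 0.0486%, and 4 lower (12.1%), beside 0.441%. The skin-negative compounds called 0 members, beside 0.327% of all probesets for Cpd1 and 0.00347% for Cpd18 in either direction. For Cyp2b23, Cyp2j12 and Cyp2g1 the lack of change with Cpd1 was part of the rule by which the study chose them. An unadjusted p under 0.05 was found for 8 members (24.2%) with Cpd1, beside 13.2% of all probesets, and for 4 (12.1%) with Cpd18, beside 7.96%. The ANOVA of the study's methods, adjusted in the same way, called 0 members for both. It called only 26 of all probesets for Cpd1 and 0 for Cpd18, so that it could show little. Unadjusted, at p under 0.01 and fold over 1.2, the ANOVA called 3 members for Cpd1 and 0 for Cpd18, beside 751 and 306 of all probesets. Over all comparisons 14 genes were called, 4 of them higher and 10 lower, with 0 called in both directions, and 16 were called in none. Without Cyp2g1 these were 13 genes, 3 of them higher.

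**Figure D4:**
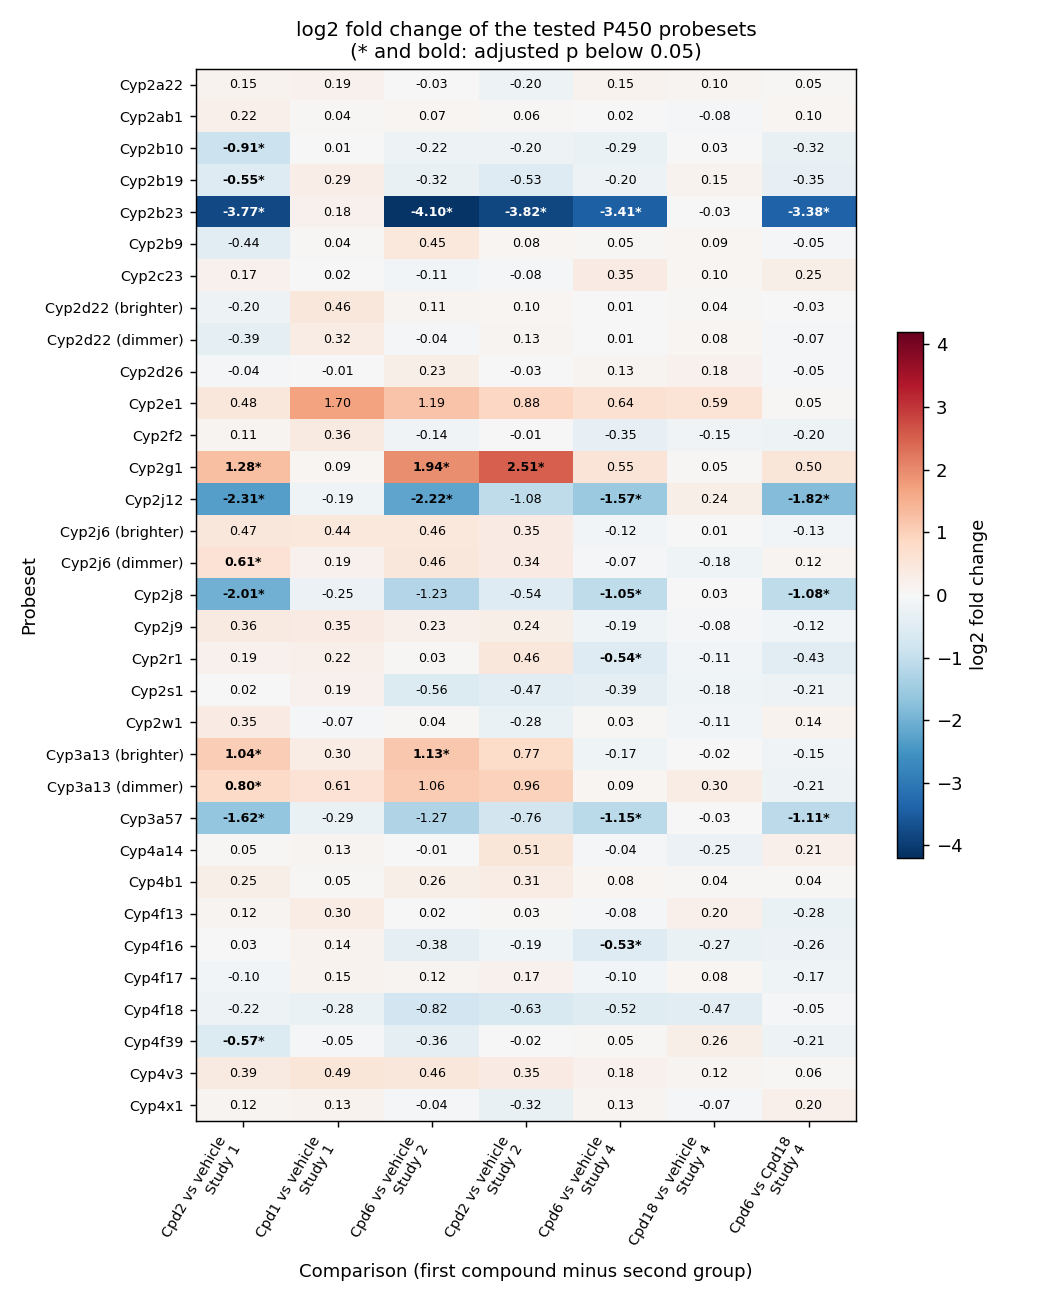
Log2 fold changes of the 33 tested member probesets (rows) in 7 comparisons of compound against vehicle or compound against compound (columns), with colour for the size and direction and a star where the adjusted p was under 0.05. The rows of Cyp2b23, Cyp2j12, Cyp2j8 and Cyp3a57 are lower in the columns of the skin-positive compounds, and the columns of Cpd1 and Cpd18 against vehicle hold no star.

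The compounds were compared directly in 3 pairs, with p-values adjusted over all 28789 probesets in each. Cpd6 and Cpd18 are of the same chemical series (D) and were given at the same dose. They differed at Cyp2b23, Cyp2j12, Cyp2j8 and Cyp3a57, all lower with Cpd6. Only Cyp2j12 kept this call by the adjusted ANOVA, which called 14 of all probesets. In 1 fit over all arrays Cyp2j8 and Cyp3a57 lost it. The exposure to Cpd6 and Cpd18 was not the same. The interval of their difference ran between −4.00 and −2.77 for Cyp2b23 and between −0.44 and 0.15 for the brighter probeset of Cyp3a13. Cyp2b10 and Cyp2b19 were not called, at −0.32 (adjusted p = 0.198) and −0.35 (adjusted p = 0.0911). Cpd6, of series D, and Cpd2, of series B, were given at the same dose in Study 2, and limma called 0 members different between them and 0% of all probesets. The adjusted ANOVA also called 0 members, but it could hardly call any in Study 2. Against vehicle it called 1 of all probesets for Cpd2 and 3 for Cpd6. In limma 3 members (9.09%) had an unadjusted p below 0.05, beside 8.23% of all probesets. The interval was −0.68 to 0.12 for Cyp2b23 and −1.39 to 0.26 for Cyp2g1. For Cyp2j12 all 4 Cpd6 mice were below all 4 Cpd2 mice, with −1.14 (95% interval −1.70 to −0.58, adjusted p = 0.248). Cpd2 and Cpd1, of series B and A, differed at 13 member probesets, and their doses are not settled as matched.

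The same compound was given in 2 studies to different mice, and its effects were set against each other in 1 fit over all arrays. For Cpd2, 1 of 33 members differed between Study 1 and Study 2, beside 0.726% of all probesets. This was Cyp2j8, whose change with Cpd2 was −2.01 in Study 1 and −0.54 in Study 2, a difference of −1.47 (SE 0.37, 95% interval −2.21 to −0.73, adjusted p = 0.0430). Leaving out Cpd2 replicate 2, 3, 4 or 7, or replicate 2, 3, 5 or 6 of the vehicle mice in Study 1, ended this call, as did leaving out Cpd2 replicate 1, 2 or 3, or replicate 1 or 4 of the vehicle mice in Study 2 (−1.16 to −1.50). Cyp2j12 had a difference of −1.23 (SE 0.36, adjusted p = 0.0753), which was called without Cpd2 replicate 1 or 8 or vehicle replicate 4 of Study 1 (−1.34, −1.33 and −1.42). Without that vehicle mouse Cyp2b10 (−0.86, adjusted p = 0.0156) and Cyp4f39 (−0.63, adjusted p = 0.0284) were called too, which made 4 members. For Cyp2b23 the difference was 0.05 (95% interval −0.99 to 1.09). For Cpd6, limma called 0 members and 0% of all probesets different between Study 4 and Study 2. An unadjusted p under 0.05 was found for 4 members (12.1%), beside 7.72% of all probesets. Array weights called 2. Cyp3a13, at its brighter probeset, had a Cpd6 effect of −0.17 in Study 4 and 1.13 in Study 2, a difference of −1.30 (SE 0.34, adjusted p = 0.134), and Cyp2g1 one of −1.39 (SE 0.47, adjusted p = 0.315).

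Levels of vehicle mice were set side by side between studies, with no test. The 3 members with the widest range of means were lower in the later studies, where Cyp2j12 averaged 8.11, 7.15 and 6.88 in vehicle mice of Studies 1, 2 and 4, Cyp2j8 averaged 5.22, 4.44 and 4.21, and Cyp4f18, the leukotriene B4 hydroxylase of neutrophils, averaged 6.05, 5.52 and 5.01. Other members ran the other way, such as Cyp2b19 with 9.61, 9.94 and 10.31 and the brighter probeset of Cyp3a13 with 5.51, 5.69 and 6.00. Each study is its own set of arrays and mice, so that the study and its array batch cannot be told apart.

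Several members that changed are neighbours in the genome, and the called ones did not all move in the same direction. On chromosome 7, in RefSeq order, Cyp2b9, Cyp2b23, Cyp2b19, Cyp2g1 and Cyp2a22 follow each other among the tested members, with Cyp2a4 and Cyp2a5, which were not tested, between them. With Cpd2 in Study 1, Cyp2b23 fell by 3.77, its neighbour Cyp2b19 by 0.55 and Cyp2b10, before Cyp2b9 in the same cluster, by 0.91. Cyp2g1, next to Cyp2b19, rose by 1.28 from a vehicle level below the lower limit for testing. Cyp2b9 had −0.44 and Cyp2a22 had 0.15, and neither passed the test. Both were dim, near that limit, so that a fall could hardly show. All 4 tested Cyp2b genes had negative changes there. On chromosome 4, Cyp2j12 and Cyp2j8 fell in Study 1, while Cyp2j6, next to Cyp2j8, was higher at 1 of 2 probesets and Cyp2j9 had 0.36 (adjusted p = 0.0581). The probe sequences are not used here, so that shared signal between near-identical copies in the Cyp2b, Cyp2j and Cyp3a clusters was not checked.

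**Figure D5:**
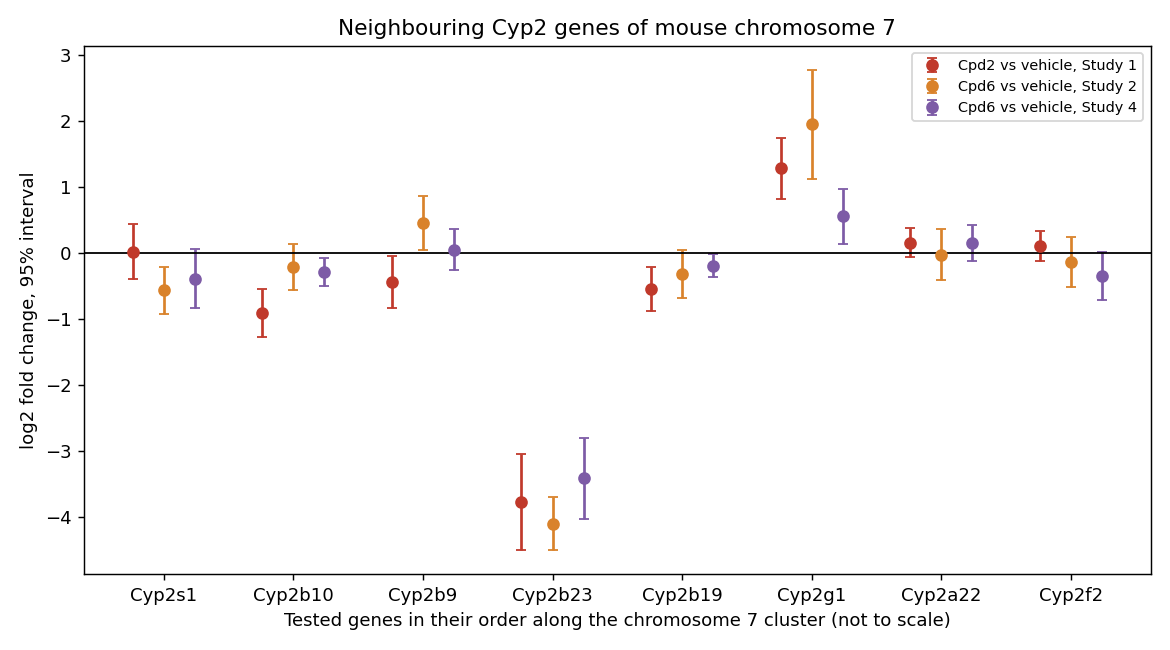
Log2 fold change with its 95% interval (vertical axis) for 8 tested Cyp2 genes in their order along chromosome 7 (horizontal axis), for Cpd2 in Study 1, Cpd6 in Study 2 and Cpd6 in Study 4, each against vehicle. Cyp2b23 lies at −3.77, −4.10 and −3.41, Cyp2g1 lies above 0, and Cyp2f2, at the end of the row, has intervals that reach 0.

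Of the 16 genes called in none of the comparisons, Cyp2e1 had the largest differences. In Study 1 it had a lowest level of 7.72, a median of 8.23 and a highest of 9.10 in Cpd2 mice, 8.83, 9.56 and 10.11 in Cpd1 mice, and 4.23, 8.57 and 10.12 in vehicle mice. The change with Cpd1 was 1.70 (95% interval 0.60 to 2.79, adjusted p = 0.159), within the spread of the vehicle mice. Cyp4f18 had −0.52 with Cpd6 (adjusted p = 0.0541) and −0.47 with Cpd18 (adjusted p = 0.467) in Study 4, and −0.82 with Cpd6 in Study 2 (adjusted p = 0.191). Cyp2j9, Cyp2f2, Cyp4b1 and Cyp4v3 were bright and stayed within −0.42 and 0.49 in every comparison. Cyp2s1 ranged between −0.56 and 0.48 and Cyp4f13 between −0.28 and 0.30. The other uncalled genes, Cyp2a22, Cyp2ab1, Cyp2b9, Cyp2c23, Cyp2d26, Cyp4a14, Cyp4f17 and Cyp4x1, had means of 3.69 or less, near the lower limit for testing.

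Genes that work with P450 enzymes were counted from lists, to be read against the shares of all probesets given above. Por, the P450 reductase itself, and Fdxr had no matched probeset and were not tested. Of 9 tested electron donors, Cyb5r2 (−0.87, adjusted p = 0.00275), a cytochrome b5 reductase, and Cyb5b (−0.38, adjusted p = 0.00443) were lower with Cpd2 in Study 1 and 0 were higher. Against Cpd1, 5 were lower, among them Cyb5r1 (−0.38, adjusted p = 0.0151), and 0 higher. Cyb5a, the microsomal cytochrome b5, was lower with Cpd6 in Study 4, against vehicle (−0.66, adjusted p = 0.00139) and against Cpd18 (−0.51, adjusted p = 0.0191). Of 8 genes of heme supply and breakdown, 0 were higher and 2 lower with Cpd2 in Study 1, among them Alad (−0.37). Against Cpd1, 2 were higher and 3 lower. Hmox1, which breaks heme down, was higher there (1.56, adjusted p = 0.00117), as was Cpox (0.48), while Alas1, the enzyme that opens heme synthesis, was lower (−0.57, adjusted p = 0.00542). With Cpd6 in Study 4, Hmox1 was lower (−0.49, adjusted p = 0.0305). Among 14 transcription factors of P450 genes, most of them nuclear receptors, 3 were called, all with Cpd2 against Cpd1. Arnt, the partner of the aryl hydrocarbon receptor, was higher there (0.43), beside 8.99% of all probesets. Pparg (−0.70, adjusted p = 0.00415) and Ppara (−0.42) were lower, beside 8.25%. Of 15 epoxide hydrolases and eicosanoid enzymes, 5 were higher with Cpd2 in Study 1 and 0 lower, beside 7.09% and 6.00% of all probesets. Among the 5 were the epidermal lipoxygenases Alox12b (1.17) and Aloxe3 (1.09). Against Cpd1, 4 were higher and 3 lower, beside 8.99% and 8.25%, and Ephx2, the soluble epoxide hydrolase, was among the lower ones (−0.70, adjusted p = 0.0259). With Cpd2 in Study 1, 7 of 10 markers of differentiated keratinocytes were called higher, and the part of these cells in the change was not tested. Alox15 was lower with Cpd6 in Study 4 (−0.82). Of 16 genes of other P450 families, 3 were higher and 2 lower with Cpd2 in Study 1, and Cyp17a1, a steroid hydroxylase, was among the higher ones (0.87, adjusted p = 0.0267). With Cpd1, 2 were higher, Cyp11a1 (0.82, adjusted p = 0.0361), the enzyme that opens steroid synthesis, and Cyp26b1 (0.49, adjusted p = 0.0344), which degrades retinoic acid. Both were also among those higher with Cpd2 in Study 1 (0.66, adjusted p = 0.0102, and 0.56, adjusted p = 0.000584). Against Cpd1, Cpd2 had 0 higher and 2 lower. Cyp1a1, the main target of the aryl hydrocarbon receptor, was lower with Cpd2 in Study 1 (−2.42, adjusted p = 4.09e-09, and −2.69, adjusted p = 7.22e-10, against Cpd1), with Cpd6 and Cpd2 in Study 2 (−2.01, adjusted p = 0.000517, and −1.34, adjusted p = 0.0351), and with Cpd6 in Study 4 against vehicle (−1.17, adjusted p = 0.000689) and against Cpd18 (−1.0, adjusted p = 0.00411). It too is a marker that the study chose on the mice of Studies 1 and 2, by a rule that also required no change with Cpd1. With Cpd18 it had −0.16 (adjusted p = 0.819).

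Across the 48 arrays, with the mean of each study removed, the genes whose levels ran closest to Cyp2b23 were Cers5 (Pearson r = 0.966), Aadacl4 (0.965), Ces4a (0.964), Scd3 (0.961) and Pnpla5 (0.958), out of 19950 probesets compared. Scd3 is a stearoyl-CoA desaturase of the sebaceous gland, Cers5 makes ceramides and Pnpla5 is a lipase. Among members, Cyp2j12 had 0.915, Cyp3a57 0.891, Cyp2j8 0.85, Cyp2b10 0.768 and Cyp2b19 0.689. Closest to Cyp2g1 were the chemokine Ccl1 (0.756), Zbtb7c (0.75), Igfl3 (0.747), the defensin Defb1 (0.744) and Pdlim4 (0.743), and among members Cyp3a13 with 0.556 and 0.489 for its probesets. Of these genes, Cers5 (as Lass5), Ces4a, Scd3, Pnpla5, Ccl1, Defb1 and Pdlim4 are markers that the study chose on part of these mice. Cyp2b23, Cyp2j12 and Cyp2g1 were chosen by the same rule, so that likeness between these markers is not independent evidence. The arrays share treatments and studies, and the values describe likeness of pattern only.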

How the data were processed

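RNA of 48 skin biopsies was amplified (NuGEN Ovation WB) and hybridised to a custom mouse Affymetrix array, with 1 array per mouse. The authors made linear intensities with RMA (version not given in the sources used here), which corrects background, sets the arrays on a common distribution and summarises probes. The deposited intensities ran from 1.595 to 13570, with array medians from 26.4 to 30.8. No pair of arrays was identical (highest correlation 0.996). Groups came from the labels. Nothing says that mice of a group were housed apart, so p-values measure the spread between these mice.
Gene symbols came from the platform annotation, in which 24478 probesets name 1 gene, 65 several and 13842 none, and members were taken from those with 1. A separate limma fit per study (version 3.58.1, R 4.3.3) used the log2 of the deposited intensities, with 1 mean per group, an intensity trend and Benjamini-Hochberg adjustment over the 28789 probesets at or above the 25th percentile. Differences of an effect between studies came from 1 fit over 48 arrays. The present-call filter of the methods needs probe data and was not used. The methods' one-way ANOVA (p under 0.01 and fold over 1.2, and also adjusted) was an alternative, with no filter, other filters and scalings, array weights, no trend, the replicate block, muscle and hair scores and leaving out mice. The fit was tested on simulated arrays. Every member called against vehicle or between compounds is named, with up to 4 called genes per pathway list, by the largest change, and Cyp1a1. The members and lists were chosen with earlier results of these data known. Where a gene has 2 probesets both are given. Sequences, counts and plots used Python 3.11.15 with pandas 2.3.3, numpy 2.4.6 and matplotlib 3.10.9. RefSeq held a promoter for 24 of the 30 tested genes. The number of arrays limits the precision.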

Additional observations from a re-analysis of the deposited data

Results flagged for a closer look

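Single mice stood apart from the rest of their group at 4 member genes. Vehicle replicate 4 of Study 1 was low at the brighter probeset of Cyp2d22 (log2 intensity 6.485, the other 7 mice 7.29 to 7.56), at its dimmer probeset (5.558, the others 6.18 to 6.60), at Cyp2j12 (6.834, the others 7.96 to 8.72) and at the brighter probeset of Cyp2j6 (5.572, the others 6.68 to 7.33). In the same study Cpd1 replicate 7 was low at the dimmer probeset of Cyp2d22 (5.948, the others 6.46 to 6.91), and in Study 4 Cpd18 replicate 4 was low at Cyp2w1 (4.987, the others 5.17 to 5.20). These are 6 of 153 groups of values examined, where chance alone gives about 1 in 20, or 7.65. The groups share mice and are not independent, and most of the 6 came from vehicle replicate 4 of Study 1. Setting 6 beside 7.65 therefore does not decide whether that mouse stood apart by chance.
The effect of Cpd2 on Cyp2j8 differed between Study 1 and Study 2 by −1.469 on the log2 scale, by the test of the difference itself (adjusted p = 0.0430, limma).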

How the results depend on the processing

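The gene results examined were those of the called member genes that had an unadjusted p under 0.05 in the main fit. No alternative turned a direction among them, which their selection made likely beforehand. Of 41 that were called, 20 kept their call under every alternative in which the probeset was tested, and of 40 that were not called, 19 were called by some alternative. For Cpd2 in Study 1, 11 member probesets were called, and leaving out 1 mouse at a time gave 10 to 13, the lowest count without Cpd2 replicate 2 and the highest without vehicle replicate 4. Cpd2 against Cpd1 called 13, with 12 to 15 when 1 mouse was left out and 6 with a muscle score as a covariate. For Cpd2 in Study 2 the count of 2 became 1 with no intensity trend, the hair follicle score, the adjusted ANOVA or the replicate block, 4 by the ANOVA with p under 0.01 and fold over 1.2, and 1 to 2 without 1 mouse. A 50th percentile filter also gave 1, because it left Cyp2g1 untested. For Cpd6 in Study 2 the count of 4 became 8 with array weights, 7 in 1 fit over all 48 arrays, 1 by the adjusted ANOVA and 2 to 5 without 1 mouse. For Cpd6 in Study 4 the count of 6 became 3 with the hair follicle score and 5 to 7 without 1 mouse, and against Cpd18 the count of 4 became 2 in 1 fit over all arrays, 1 by the adjusted ANOVA and 3 to 4 without 1 mouse. For Cpd1 the count of 0 became 1 in 1 fit over all arrays, 1 with the muscle score, 7 with the hair follicle score and 3 by the ANOVA with p under 0.01 and fold over 1.2, and stayed 0 to 0 without 1 mouse, as did Cpd18 and Cpd6 against Cpd2. The difference of the Cpd2 effect between studies (1) became 0 without a filter, with either score or without the 3 mice low in muscle genes, 5 with array weights and 0 to 4 without 1 mouse. A 50th percentile filter also gave 0, because it left Cyp2j8 untested. The difference of the Cpd6 effect between studies (0) became 2 with array weights and stayed 0 to 0 without 1 mouse. The causes were not tested.
The replicate numbers did not pair the mice (correlations of deviations from −0.438 to 0.379). With the replicate block 11 members were called for Cpd2 in Study 1, 12 against Cpd1, 3 for Cpd6 in Study 2, 5 for Cpd6 in Study 4 and 4 against Cpd18. Over all probesets, Cpd2 in Study 1 called 3769, but 1001 with the muscle score and 1339 without the 3 mice low in muscle genes. No scaling moved the median of all probesets by over 0.1. Dim members such as Cyp2g1 lie near the lower limit of the array.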
